A study of Danio rerio with 4 samples.

Results

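The slc25 family of mitochondrial carriers was described here in sorted zebrafish β-cells that did or did not express a transgenic interleukin-1β. Members were all rows of the deposited gene table whose symbol starts with slc25a in lower case, which gave 50 of 22044 genes. All 50 were annotated as protein-coding, and they lay on 22 chromosomes. Measurements came from 4 libraries of mRNA, 2 for each genotype. The first genotype carried Tg(ins:il1b), in which the insulin promoter drives a truncated, mature and FLAG-tagged il1b and an eye marker, cryaa:mCherry, identifies carriers. The line came from 1 founder. It was compared with WT, and both genotypes carried the insulin-driven reporter Tg(ins:mKO), which the methods name Tg(ins:nlsRenilla-mKO2). Fish were 3 months old, their primary islets were dissected, and the fluorescent β-cells were collected by FACS. Whether replicate libraries were made from different fish or pools of fish was not stated, so every p-value below measures only the spread between these libraries, which may be technical.

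Carriers of this family sit in the inner membrane of mitochondria, which is otherwise closed to most metabolites, and each exchanges or imports a restricted set of substrates such as nucleotides, phosphate, organic acids, amino acids or cofactors. In β-cells, glucose is coupled to insulin secretion through mitochondrial ATP, which leaves the organelle by an ADP/ATP carrier, and through metabolites such as citrate, malate, glutamate and aspartate that cross by other members. The roles given below are those known for the mammalian proteins of the same name unless another species is named.

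The libraries held 28524617 and 28702122 reads in genes for Tg(ins:il1b) and 35073715 and 35637508 for WT. The transgene's own gene, il1b, had 587911 and 423851 normalised counts in Tg(ins:il1b) and 11 and 1.9 in WT. The insulin gene ins took 11.7 and 9.56% of reads in Tg(ins:il1b) against 18.5 and 24.5% in WT. The main β-cell marker was thus present in all 4 libraries and at a lower share in the transgenic ones. Other β-cell markers did not all go this way. In normalised counts, pdx1 and pcsk2 were lower in both transgenic libraries, and nkx2.2a, mnx1 and neurod1 were higher in both. The genotypes overlapped in pcsk1, isl1, slc2a2 and gck. Of other islet cells, markers of α-cells took 0.703 and 1.45% of reads in Tg(ins:il1b) against 0.122 and 0.129% in WT. This list included pcsk2, also a β-cell marker above, which had 3768 and 3420 normalised counts in Tg(ins:il1b) against 15239 and 11640 in WT. The other markers found from this list, gcga, gcgb, arxa and mafba, were higher in both transgenic libraries. Markers of δ-cells took 0.164 and 3.72% in Tg(ins:il1b) against 0.296 and 0.00610% in WT, so that Tg(ins:il1b) replicate 2 and WT replicate 1 were the higher library of their genotype. Macrophage and leukocyte markers, of which 19 of 21 were found in the table, took 0.0711 and 0.186% in Tg(ins:il1b) against 0.0166 and 0.0535% in WT, most of it from cd74a, cd74b and grn1. The other 16 of these markers summed to 253 and 995 normalised counts in Tg(ins:il1b) against 87.1 and 145 in WT, higher in both transgenic libraries. Of the defining markers, ptprc had 33.4 and 41.7 normalised counts in Tg(ins:il1b) against 6.4 and 6.8 in WT, while mpeg1.1 and lcp1 were at 0 in replicate 1 of each genotype. Neutrophil markers, of which 5 of 7 were found, summed to 256 and 614 normalised counts in Tg(ins:il1b) against 98.3 and 647 in WT. The genotypes overlapped in this sum. Of these markers, npsn had 84.9 and 68.4 in Tg(ins:il1b) against 2.8 and 0 in WT. mmp9 had 66.7 and 313 against 59.7 and 28.9, mpx was also higher in both transgenic libraries, and csf3r overlapped. cpa5, which is also on the acinar list, had 97 and 214 against 33.1 and 614. It made up most of the sum in WT replicate 2. Duct markers took 0.0379 and 0.0559% against 0.0255 and 0.0171%, and acinar markers 0.00725 and 0.0130% against 0.00395 and 0.0211%. Of the duct markers, krt18, epcam, anxa4, cldnc and cldnh were higher in both transgenic libraries, and krt4 and sox9b overlapped. nkx6.1 went the other way, with 272 and 253 normalised counts in Tg(ins:il1b) against 384 and 463 in WT. The part of these other cells in the differences below was not tested. In bulk libraries of this kind, fewer cells of a type and less RNA per cell cannot be told apart.

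The family was dominated by a single gene. Levels between genes were compared as normalised counts per kb of listed gene length, where a normalised count is the authors' read count divided by a factor of its library. slc25a5, the ADP/ATP carrier that exports ATP from the matrix, lies on chromosome 14 (32541311 to 32543824, GRCz10). Its level of 85803 normalised counts per kb, the mean of the 4 libraries, ranked 20 among all 22044 genes. Of the summed per-kb level of the 50 members, slc25a5 made up 80.8 and 81.8% in Tg(ins:il1b) and 77.8 and 79.1% in WT. It was followed by the phosphate carrier gene slc25a3b with 5160 normalised counts per kb, the acylcarnitine carrier gene slc25a20 with 2636 and the ATP-Mg/phosphate carrier gene slc25a25b with 1866.

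Most members had a mean under 1000 normalised counts. Those tested were still deeper than the background, with a median mean of 563 beside 210 for all genes tested. Reads were found in every library for 47 members. The mean over the 4 libraries reached at least 1000 normalised counts in 11 members and stayed under 100 in 17. Of the 50, 45 reached 10 normalised counts in 2 or more libraries and entered the test. The 5 that did not were slc25a4, slc25a3a, slc25a48, slc25a24l and slc25a13. Together the members took 0.602 and 0.538% of all reads in Tg(ins:il1b) and 0.556 and 0.502% in WT. Without slc25a5 they took 0.170 and 0.146% in Tg(ins:il1b) and 0.180 and 0.153% in WT, and the genotypes overlapped in both shares of reads. On the scale of the tests, the sum without slc25a5 was 20868 and 18940.5 normalised counts per kb in Tg(ins:il1b) against 24367 and 22451 in WT, with both transgenic libraries below both WT libraries.

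**Figure D1:**
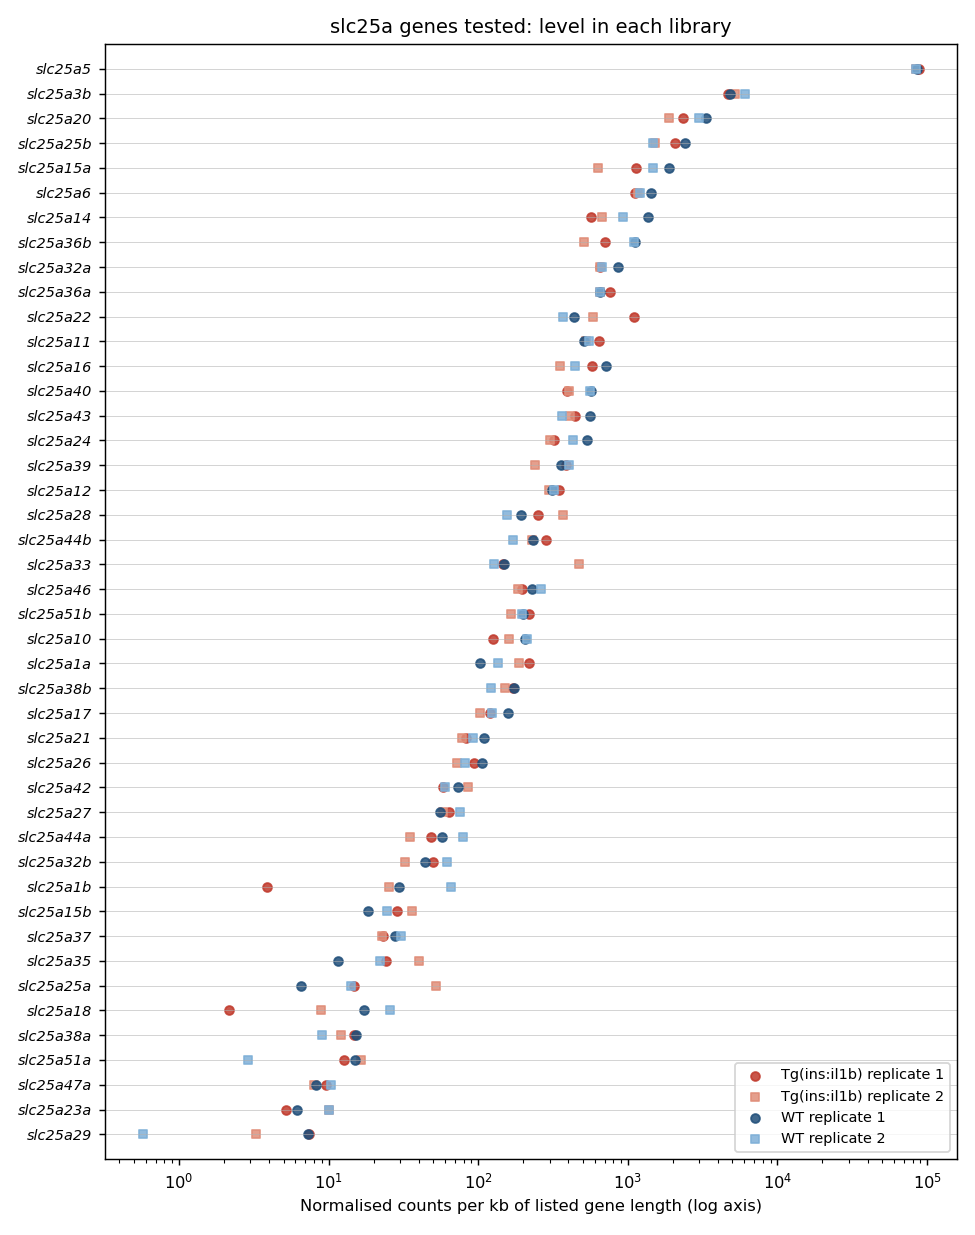
Level of 44 of the 45 slc25a genes tested in each library, as normalised counts per kb of listed gene length on a log axis, ordered by the mean. slc25a5 stands apart at a mean of 85803 per kb, and the 4 libraries lie close together for the abundant genes and spread widely for several of the lowest ones.

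The main question was whether the carriers of β-cells exposed to il1b differ in mRNA level from those of WT β-cells. By limma on log2(normalised count + 1) with Benjamini-Hochberg adjustment over 18504 genes, 0 of 45 members were higher and 0 lower at an adjusted p under 0.05, where 1.1% of all genes were called higher and 0.530% lower. edgeR's quasi-likelihood test on the whole reads also called 0 members higher and 0 lower, beside 0.903 and 0.373% of all genes. DESeq2 on the same reads called 0 members higher (4.24% of all genes) and 1 lower, slc25a36b (2.45% of all genes). At an unadjusted limma p under 0.05, 3 members were higher, which is 6.67% of those tested beside 7.95% of all genes, and 6 were lower, which is 13.3% beside 6.45%. edgeR gave the same 3 and 6 members at an unadjusted p under 0.05, beside 8.12 and 5.89% of all genes. Among genes to which it gave an adjusted p, DESeq2 gave 5 higher (8.59% of all genes) and the same 6 lower (6.41% of all genes). slc25a13, to which DESeq2 gave no adjusted p, was also lower by its unadjusted DESeq2 p of 0.0229. Unadjusted calls are given as a description, since no member of them passed limma's adjustment.

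The family lay close to the background in its median change. It held a smaller share of changes of at least 1 than all genes, and a larger share with both transgenic libraries below WT. The median log2 fold change, Tg(ins:il1b) over WT, was -0.09 over the members and -0.01 over all genes tested, with 18 members above 0 and 27 below. The median size of the change without regard to sign was 0.35 on the log2 scale for members and 0.39 for all genes. In 27 members, or 60.0%, the change was under 0.5 on the log2 scale, beside 58.0% of all genes. Changes of at least 1 were found in 5 members, or 11.1%, beside 21.2% of all genes. Of the 33 members with a mean of at least 100 normalised counts, 0 had a limma change of that size, beside 12.4% of the 11724 genes tested at that depth. slc25a22 lay just under it (0.9987 by limma, 1.06 by DESeq2 and 1.07 by edgeR), and slc25a33 was past it by DESeq2 (1.15) and edgeR (1.17). At that depth the median size of the change was 0.33 for members and 0.29 for all genes, and 66.7% of members and 69.5% of all genes changed by less than 0.5, so the order of members and background was the opposite of that over all depths. The median gap between the 2 libraries of a genotype was 0.32 for Tg(ins:il1b) and 0.34 for WT on the log2 scale, nearly as large as the median change between genotypes. In 14 members the 95% interval of the log2 fold change lay wholly between -1 and 1.

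Libraries of the 2 genotypes were then compared without a fit. The Tg(ins:il1b) libraries were both above both WT libraries in 7 members (15.6%, beside 22.3% of all genes) and both below in 16 members (35.6%, beside 22.1% of all genes). Among the 7 were slc25a1a, slc25a15b, slc25a22, slc25a25a, slc25a28 and slc25a35. The 16 included carriers of fatty acids, amino acids, organic acids and nucleotides, and their levels are given by role below.

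**Figure D2:**
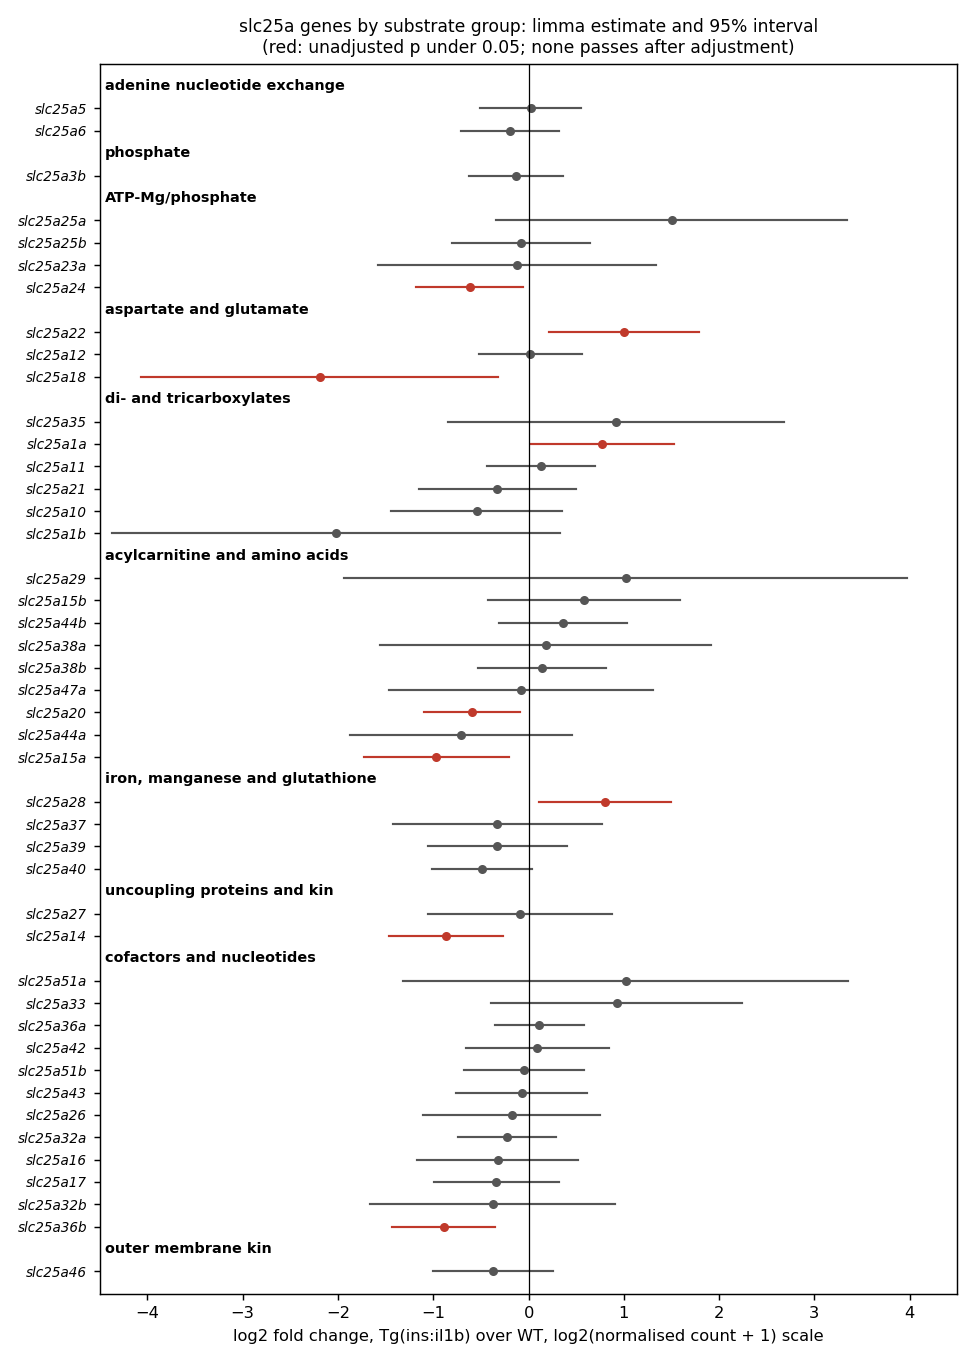
Log2 fold change of 44 of the 45 tested slc25a genes, Tg(ins:il1b) over WT, with its 95% interval from limma (log2(normalised count + 1) scale, n = 2 libraries a genotype), grouped by substrate. Intervals of 9 genes (red) leave out 0 and none passes after adjustment, and the widest intervals belong to genes of low count such as slc25a29 and slc25a1b.

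Among ADP/ATP carriers nearly all of the mRNA was slc25a5, and its level differed between genotypes by less than the spread of the libraries. It had 124406 and 120197 normalised counts in Tg(ins:il1b) against 121075 and 119969 in WT. The genotypes overlapped, and the log2 fold change was 0.02 with an SE of 0.22 and a 95% interval of -0.51 to 0.55 (limma, adjusted p = 0.984). As a share of reads, slc25a5 took 0.432 and 0.392% in Tg(ins:il1b) against 0.376 and 0.349% in WT, where both transgenic libraries were higher. The shares use the total of reads and the normalised counts the authors' factors, and scaling by the total moved the median log2 fold change of all genes to 0.15. The related slc25a6 had 1389 and 1444 normalised counts in Tg(ins:il1b) against 1769 and 1484 in WT, with a log2 fold change of -0.19 (limma, adjusted p = 0.769). slc25a4, the ADP/ATP carrier of heart and muscle in mammals, had 1 and 1.1 in Tg(ins:il1b) against 2.8 and 8.7 in WT and was not tested.

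Phosphate for ATP synthesis enters by the product of slc25a3. slc25a3b had 9868 and 10997 normalised counts in Tg(ins:il1b) against 10169.9 and 12826 in WT. The genotypes overlapped, with a log2 fold change of -0.13 (SE 0.21, 95% interval -0.63 to 0.36, limma adjusted p = 0.851). slc25a3a was near the limit of detection with 1 and 9.6 in Tg(ins:il1b) against 6.4 and 7.7 in WT, so slc25a3b held 99.9% or more of the pair, to the nearest 0.1%, in every library on the per-kb scale.

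The calcium-sensitive ATP-Mg/phosphate carriers move adenine nucleotides into or out of the matrix. The most abundant, slc25a25b, had 3638 and 2663 normalised counts in Tg(ins:il1b) against 4230.4 and 2570.1 in WT, and the spread within each genotype was larger than the difference between them (log2 fold change -0.08, SE 0.30, limma adjusted p = 0.947). slc25a24 had 786 and 746 in Tg(ins:il1b) against 1305 and 1057 in WT. Both transgenic libraries were below both WT libraries, with a log2 fold change of -0.62 (SE 0.23, unadjusted p = 0.0357, limma adjusted p = 0.299). slc25a25a was low in all libraries, with 47.5 and 168 in Tg(ins:il1b) against 21.1 and 45.3 in WT. Its transgenic libraries lay above WT, mainly through replicate 2, and its log2 fold change of 1.50 (SE 0.77, limma adjusted p = 0.446) was the highest of any member tested. slc25a23a had 32.3 and 63 against 38.6 and 62.7, and slc25a24l 12.1 and 0 against 1.8 and 2.9.

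Of the aspartate and glutamate carriers, those that exchange aspartate for glutamate serve the malate-aspartate shuttle, which moves reducing equivalents from glycolysis into mitochondria. The most abundant row of this group by normalised counts was named slc25a22 and lies on chromosome 6 (49096983 to 49108393, GRCz10). It had 3459 and 1855 normalised counts in Tg(ins:il1b) against 1385 and 1160 in WT. Both transgenic libraries were above both WT libraries, and replicate 1 was far higher than replicate 2. The log2 fold change was 1.00 (SE 0.33, 95% interval 0.21 to 1.79, unadjusted p = 0.0206, limma adjusted p = 0.229), and adjusted p was 0.0644 by DESeq2 and 0.214 by edgeR. Without Tg(ins:il1b) replicate 2, DESeq2 called it (log2 fold change 1.45, adjusted p = 0.00235), and without replicate 1 it did not (0.55, adjusted p = 0.643). The name table used here gives this identifier the current symbol slc25a55a, so the glutamate carrier role of mammalian SLC25A22 is not assigned to it here.

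slc25a12, the calcium-sensitive aspartate-glutamate carrier aralar, was nearly the same in all libraries. It had 993 and 853 normalised counts in Tg(ins:il1b) against 898 and 918 in WT (log2 fold change 0.02, 95% interval -0.53 to 0.56, limma adjusted p = 0.987). slc25a13, whose mammalian product citrin has the same function, had 0 counts in both Tg(ins:il1b) libraries against 13.8 and 9.6 in WT. Taking a floor of 3 reads per library for a count of 0, the mean was at least 3.75-fold lower in Tg(ins:il1b). This floor allows for no error in the WT counts, the counts are few and the gene did not enter the limma test. DESeq2 fitted slc25a13 without giving it an adjusted p (log2 fold change -5.94, unadjusted p = 0.0229). slc25a13 also lies wholly inside the listed span of pdk4 on the same strand, which had 728 and 585 normalised counts in Tg(ins:il1b) against 1313 and 1313 in WT, and how reads were divided between overlapping genes is not given in the sources used here. slc25a18, a glutamate carrier, had 9.1 and 37.4 normalised counts in Tg(ins:il1b) against 72.6 and 109 in WT. Neither transgenic library reached the WT level, with a log2 fold change of -2.19 (SE 0.78, unadjusted p = 0.0283, limma adjusted p = 0.268), the lowest of any member tested. DESeq2 called slc25a18 only without Tg(ins:il1b) replicate 2 (log2 fold change -3.31, adjusted p = 0.0361). Its span shares 40.2% of its bases with cecr2 on the opposite strand, which had 268 and 176 normalised counts in Tg(ins:il1b) against 146 and 150 in WT, and how reads in the shared bases were assigned was not tested.

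Carriers of di- and tricarboxylates exchange citrate, malate and oxoglutarate between the matrix and the cytosol. slc25a11, the oxoglutarate/malate carrier and the other arm of the malate-aspartate shuttle, had 1071 and 869.9 normalised counts in Tg(ins:il1b) against 854 and 912 in WT. The genotypes overlapped (log2 fold change 0.13, SE 0.23, limma adjusted p = 0.875). The citrate carrier gene slc25a1a had 419 and 360.1 in Tg(ins:il1b) against 198 and 260.5 in WT. Both transgenic libraries were higher, with a log2 fold change of 0.77 (SE 0.31, unadjusted p = 0.0444, limma adjusted p = 0.328). Its paralogue slc25a1b lay on the same chromosome, 10, and differed in the other direction, with 5.1 and 33.1 in Tg(ins:il1b) against 38.6 and 85.9 in WT (log2 fold change -2.02, SE 0.97, limma adjusted p = 0.418). The dicarboxylate carrier gene slc25a10 had 101 and 130.4 in Tg(ins:il1b) against 165 and 171 in WT, and slc25a21, an oxodicarboxylate carrier gene, had 161 and 152 against 215 and 179. Both genes lay below WT in both transgenic libraries, and the limma adjusted p was 0.590 for slc25a10 and 0.755 for slc25a21. slc25a35 had 23.2 and 38.5 in Tg(ins:il1b) against 11 and 21.2 in WT.

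The carnitine-acylcarnitine carrier brings long-chain fatty acids into mitochondria for oxidation. Its gene, slc25a20, lies on chromosome 22 (132317 to 136657, GRCz10). It had 3334 and 2669 normalised counts in Tg(ins:il1b) against 4745 and 4277 in WT. Both transgenic libraries were below both WT libraries, and the log2 fold change was -0.59 (SE 0.21, unadjusted p = 0.0270, limma adjusted p = 0.262, DESeq2 adjusted p = 0.243).

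Among the carriers of amino acids outside the aspartate and glutamate group above, slc25a15a was the only member with an unadjusted limma p under 0.05. It is an ornithine carrier gene on chromosome 15 (3267527 to 3294981, GRCz10). It had 2133 and 1196 normalised counts in Tg(ins:il1b) against 3519 and 2774 in WT. The transgenic libraries lay below WT, replicate 2 more so, with a log2 fold change of -0.97 (SE 0.32, 95% interval -1.73 to -0.21, unadjusted p = 0.0206, limma adjusted p = 0.229). DESeq2 gave an adjusted p of 0.132, and it called the gene only without Tg(ins:il1b) replicate 1 (log2 fold change -1.39, adjusted p = 0.00427). The paralogue slc25a15b held little of the pair in every library, with 116 and 148 in Tg(ins:il1b) against 75.3 and 100.3 in WT, and its transgenic libraries were higher (log2 fold change 0.59, limma adjusted p = 0.610). The glycine carrier gene slc25a38b overlapped between genotypes, with 744 and 651 in Tg(ins:il1b) against 753 and 528 in WT, and so did slc25a44b, a branched-chain amino acid carrier gene in mouse, with 808 and 652 against 657 and 485. slc25a44a had 63.7 and 46 in Tg(ins:il1b) against 76.2 and 104 in WT. slc25a38a, slc25a47a, slc25a29 and slc25a48 reached at most 40.5 normalised counts in any library. slc25a47a and slc25a48 were listed with the acylcarnitine and amino acid carriers, and no substrate is assigned to them here.

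**Figure D3:**
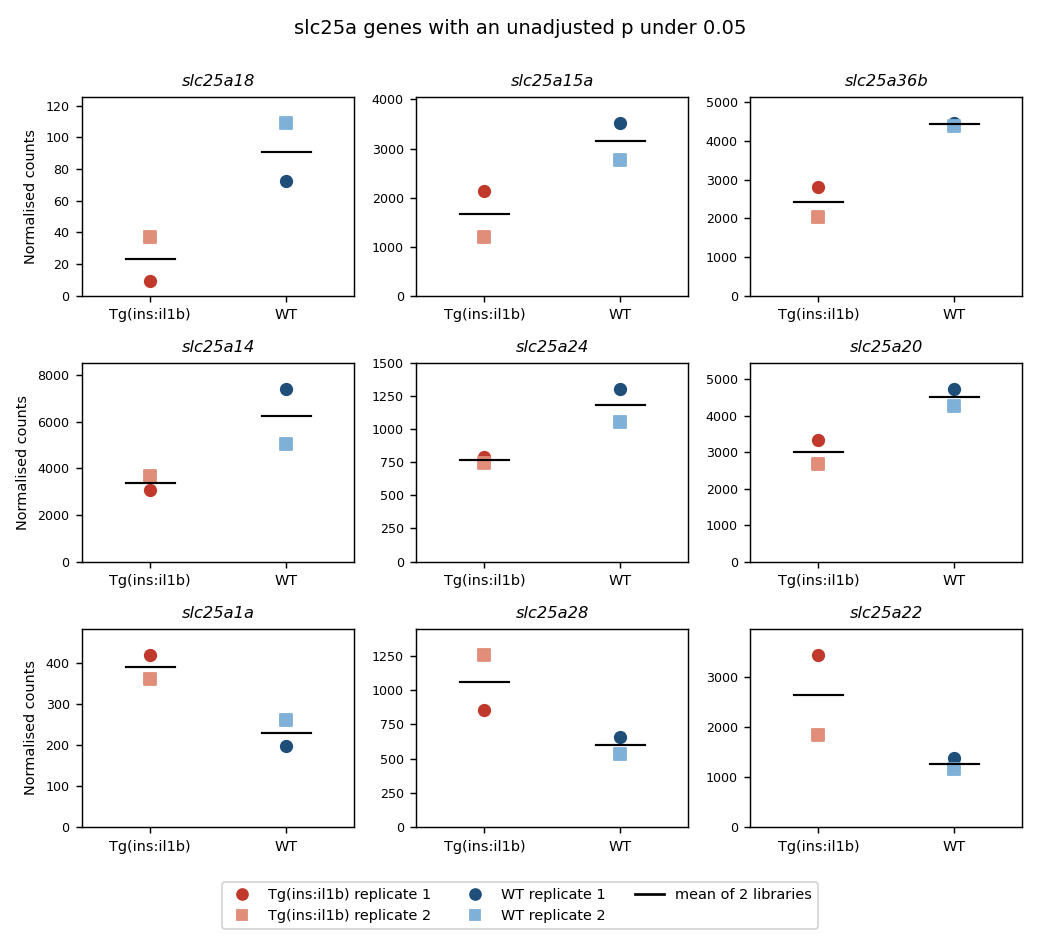
Normalised counts in each library for the 9 slc25a genes with an unadjusted limma p under 0.05, Tg(ins:il1b) left of WT, with the mean of the 2 libraries as a bar and axes starting at 0. The genotypes do not overlap in any of the 9, of which slc25a18, slc25a15a, slc25a36b, slc25a14, slc25a24 and slc25a20 are lower and slc25a1a, slc25a28 and slc25a22 higher in Tg(ins:il1b).

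Among carriers of iron and glutathione, slc25a28 was the only member with an unadjusted limma p under 0.05. slc25a28 encodes mitoferrin-2, an iron importer, and had 852 and 1259 normalised counts in Tg(ins:il1b) against 661 and 533 in WT, with a log2 fold change of 0.80 (SE 0.29, unadjusted p = 0.0292, limma adjusted p = 0.273, DESeq2 adjusted p = 0.173). The transgenic libraries did not overlap with WT and replicate 2 was the higher of them. slc25a37, mitoferrin-1, which zebrafish erythroid cells need for haem synthesis, had 60.6 and 59.8 in Tg(ins:il1b) against 72.6 and 79.1 in WT. slc25a40 and slc25a39 encode carriers that human cells use to import glutathione into mitochondria. slc25a40 had 754 and 769 in Tg(ins:il1b) against 1085 and 1060.3 in WT, and its log2 fold change was -0.49 (SE 0.22, limma adjusted p = 0.374). The replicates of each genotype lay close together and the genotypes did not overlap. slc25a40 lies wholly inside the span of cldn12 on the same strand, which had 1599 and 1676 in Tg(ins:il1b) against 1717 and 1632 in WT. slc25a39 overlapped between genotypes, with 863 and 532 against 801 and 905.

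Of the genes related to uncoupling proteins, slc25a14, also called UCP5, lies on chromosome 21 (38537980 to 38571599, GRCz10). It had 3082 and 3647 normalised counts in Tg(ins:il1b) against 7403 and 5058 in WT. The genotypes did not overlap, and the WT libraries lay further apart than the transgenic ones. The log2 fold change was -0.87 (SE 0.25, 95% interval -1.46 to -0.27, unadjusted p = 0.0113), with an adjusted p of 0.176 by limma, 0.0564 by DESeq2 and 0.202 by edgeR. slc25a27, or UCP4, had 117 and 108 in Tg(ins:il1b) against 103 and 139.9 in WT and overlapped between genotypes.

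Cofactor and nucleotide carriers held the single member called by any of the 3 tests. slc25a36b, a carrier gene for pyrimidine nucleotides in human, lies on chromosome 15 (41810279 to 41849975, GRCz10). It had 2798 and 2035 normalised counts in Tg(ins:il1b) against 4459 and 4395 in WT, with means of 2416 ± 539 and 4427 ± 45.7 (SD, n = 2 each). The WT libraries were nearly identical and both transgenic libraries were lower, replicate 2 more so. slc25a36b fell by 0.87 on the log2 scale in DESeq2 (adjusted p = 0.0391). The limma log2 fold change was -0.89 (SE 0.23, 95% interval -1.43 to -0.35, unadjusted p = 0.00653) and its adjusted p was 0.140, beside 0.163 in edgeR, so the gene did not pass in either of these. DESeq2's call held without Tg(ins:il1b) replicate 1 (log2 fold change -1.12, adjusted p = 0.0209). It was lost without Tg(ins:il1b) replicate 2 (-0.66, adjusted p = 0.426), WT replicate 1 (-0.86, adjusted p = 0.456) or WT replicate 2 (-0.89, adjusted p = 0.440).

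Its paralogue slc25a36a did not follow it. slc25a36a had 3849 and 3290.3 normalised counts in Tg(ins:il1b) against 3276 and 3300 in WT, with a log2 fold change of 0.11 (95% interval -0.35 to 0.58, limma adjusted p = 0.867). The third gene of this kind, slc25a33, had 249.6 and 799 in Tg(ins:il1b) against 254 and 218 in WT. Tg(ins:il1b) replicate 2 alone was high, with a log2 fold change of 0.92 (SE 0.55, limma adjusted p = 0.525) overall. DESeq2 called slc25a33 higher only without Tg(ins:il1b) replicate 1. In the same replicate 2, sst1.1, the somatostatin gene of δ-cells, had 1.08e+06 normalised counts against 45219 in the other Tg(ins:il1b) library. In WT, sst1.1 had 92133 and 2059, where slc25a33 had 254 and 218. The sums of α-cell, leukocyte, duct and acinar markers were also higher in replicate 2 than in replicate 1 of Tg(ins:il1b). Single markers did not all follow. The α-cell marker gcgb had 56798 normalised counts in replicate 2 against 76536 in replicate 1. pcsk2, coro1a, csf1rb, cldnc, nkx6.1, cpa1 and cpa4 were also lower in replicate 2. The part of δ-cells or of other cells in the level of slc25a33 was not tested.

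Other members listed with the cofactor and nucleotide carriers mostly overlapped. slc25a32a, the folate or flavin carrier, had 2447 and 2470 in Tg(ins:il1b) against 3268 and 2540.2 in WT, the transgenic libraries being lower (limma adjusted p = 0.718). The peroxisomal carrier gene slc25a17 had 519.5 and 445 in Tg(ins:il1b) against 693 and 534 in WT, again without overlap (limma adjusted p = 0.663). slc25a16, slc25a26, slc25a42, slc25a43, slc25a51a, slc25a51b and slc25a32b all overlapped between genotypes. slc25a46, an outer membrane protein of the family that acts in mitochondrial shape, had 401 and 378 in Tg(ins:il1b) against 469 and 543 in WT and a log2 fold change of -0.37 (limma adjusted p = 0.602).

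**Figure D4:**
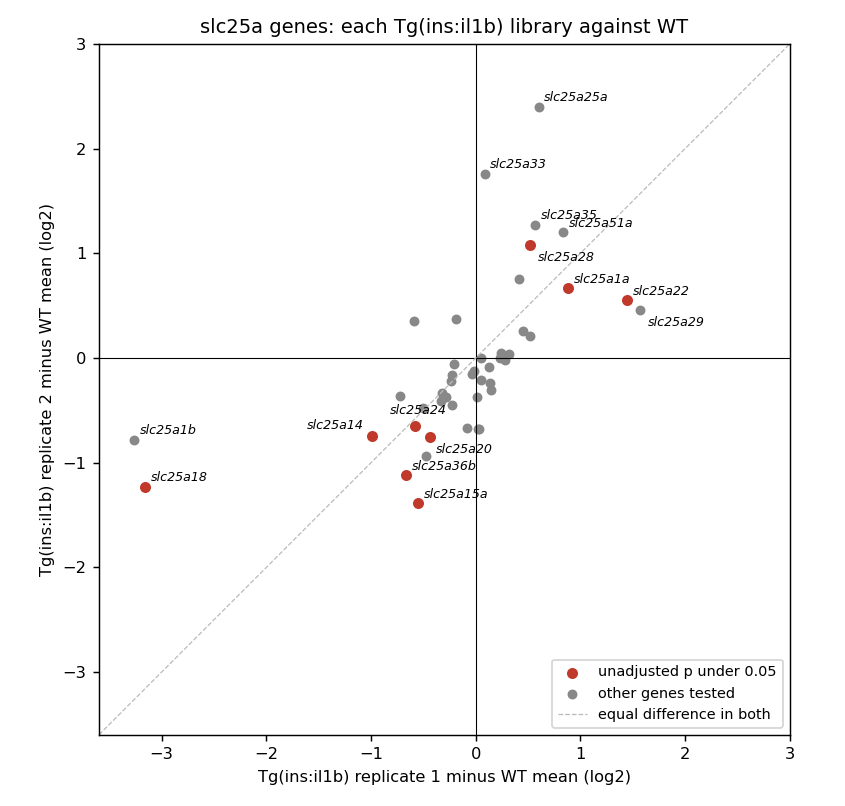
Difference of each Tg(ins:il1b) library from the mean of the WT libraries, on the log2(normalised count + 1) scale, for the 45 tested slc25a genes, with replicate 1 on the x axis and replicate 2 on the y axis. In 14 genes both Tg(ins:il1b) libraries lie above the WT mean, in 20 both below and in 11 on different sides, and slc25a33 lies far from 0 in replicate 2 only.

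Because many carriers are present in the zebrafish genome as related pairs, the split of each pair was compared between libraries on the per-kb scale. Of the 11 pairs, slc25a36b with slc25a36a was the most evenly split, slc25a36b holding 47.8 and 43.8% of the pair in Tg(ins:il1b) against 63.2 and 62.7% in WT. slc25a1a held 98.3 and 88.2% of its pair with slc25a1b in Tg(ins:il1b) against 77.9 and 67.6% in WT, so both transgenic libraries lay above both WT libraries. slc25a28 held 91.5 and 94.2% of the sum with slc25a37 in Tg(ins:il1b) against 87.4 and 83.7% in WT.

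The pair slc25a44b and slc25a44a differed in the same sense, with slc25a44b holding 85.6 and 86.9% in Tg(ins:il1b) against 80.1 and 68.5% in WT. slc25a15a held 97.5 and 94.6% of its pair in Tg(ins:il1b) against 99.0 and 98.4% in WT. In slc25a32, slc25a38 and slc25a51 the shares of the genotypes overlapped, for example 92.1 and 92.5% for slc25a38b in Tg(ins:il1b) against 91.9 and 93.1% in WT. The shares are given as descriptions without a test, since they rest on the same 4 libraries as the fold changes.

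**Figure D5:**
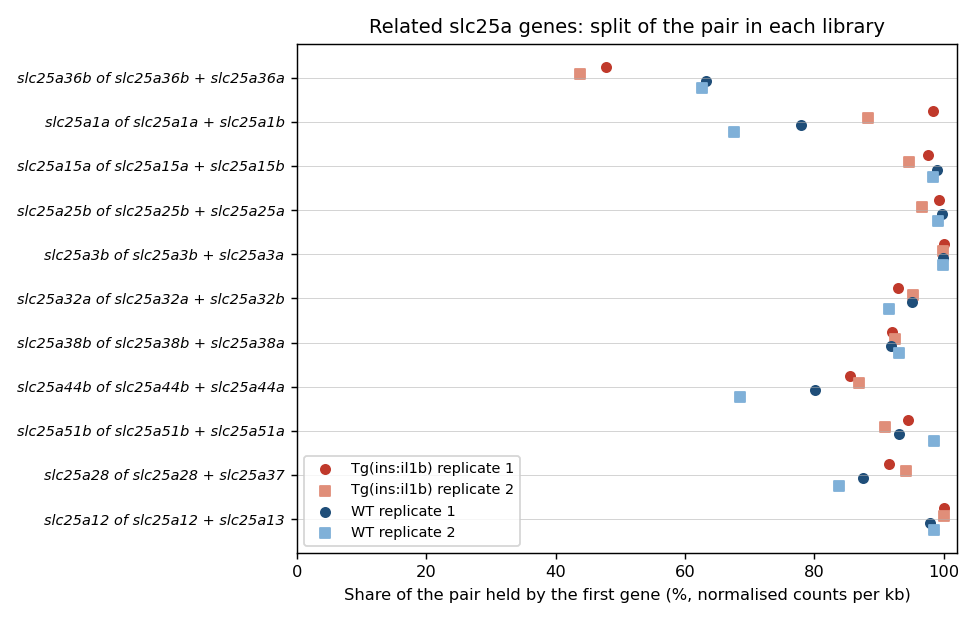
Share of the first gene in the summed normalised counts per kb of 11 pairs of related slc25a genes, in percent, for each of the 4 libraries, Tg(ins:il1b) above WT within a pair. slc25a36b holds 47.8 and 43.8% of its pair in Tg(ins:il1b) and 63.2 and 62.7% in WT, while slc25a38b holds close to the same share in all libraries.

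Carriers work beside other mitochondrial proteins, so 74 further genes were examined, of which 68 were found in the table and 66 were tested. They comprised carriers and channels outside the slc25a rule, the machinery that imports carriers into the inner membrane, enzymes of the shuttles, and regulators of mitochondrial gene expression. limma and edgeR called 0 of 66 and DESeq2 0 of the 65 to which it gave an adjusted p. At an unadjusted limma p under 0.05, 1 gene was higher (sfxn5b, 1.52% of the list beside 7.95% of all genes) and 5 lower (gabpa, gpd1a, letm1, me1 and pcxb, 7.58% beside 6.45%). edgeR gave the same 1 and 5, beside 8.12 and 5.89% of all genes. Of the 65 with an adjusted p, DESeq2 gave 1 higher (1.54% beside 8.59%) and 4 lower (6.15% beside 6.41%). gpd1a was not among the 65, and its unadjusted DESeq2 p was 0.0436 (log2 fold change -3.97). The median log2 fold change was 0.01, beside -0.09 for the slc25a genes.

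Among these, pcxb, pyruvate carboxylase, which feeds the citrate and malate pools of β-cells, had 11740 and 13815 normalised counts in Tg(ins:il1b) against 20166 and 21626 in WT. No overlap with WT was seen (log2 fold change -0.71, SE 0.19, unadjusted p = 0.00922, limma adjusted p = 0.162). letm1, a cation exchanger of the inner membrane, had 8177 and 9261 in Tg(ins:il1b) against 12331 and 15369 in WT, with a log2 fold change of -0.66 (SE 0.21, unadjusted p = 0.0166, limma adjusted p = 0.209). gabpa, a transcription factor of mitochondrial genes, had 656 and 397 in Tg(ins:il1b) against 818 and 1001 in WT (log2 fold change -0.83, limma adjusted p = 0.308).

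Both transgenic libraries lay below both WT libraries in 14 of the 66 genes (21.2% beside 22.1% of all genes) and above in 10 (15.2% beside 22.3%). By list, the genes below were 8 of 23 shuttle enzymes (34.8%), 3 of 23 carriers and channels (13.0%), 2 of 15 import genes (13.3%) and 1 of 5 regulators. Of the shuttle enzymes, 1 lay above (4.35%), and their median log2 fold change was -0.29. mdh2, malate dehydrogenase of the matrix, overlapped between genotypes with 20957 and 19297 in Tg(ins:il1b) against 23525 and 20235 in WT (limma adjusted p = 0.863). All 15 import genes changed by less than 0.5 on the log2 scale, among them tomm20b, a receptor of the outer membrane (log2 fold change -0.29, limma adjusted p = 0.650), and tomm5 (0.16, adjusted p = 0.791). vdac3, a porin of the outer membrane, had 15236 and 11576 in Tg(ins:il1b) against 13485 and 11815 in WT. The pyruvate carrier genes mpc1 and mpc2 had limma adjusted p-values of 0.748 and 0.965. tfam, which packages mitochondrial DNA, had a log2 fold change of 0.27 (limma adjusted p = 0.726).

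A few members lie near, overlap or share a name with other genes, and whether this bears on their counts was not tested. slc25a27 lies wholly inside the span of ephx1 and partly overlaps abracl, both on the opposite strand, and partly ptrhd1 on the same strand. slc25a5 and slc25a43 lie 592 bases apart on the same strand of chromosome 14, and slc25a29 and slc25a47a lie 3869 bases apart on opposite strands of chromosome 20. A further 5 rows of the table carry the family name in capitals and fell outside the rule. Of these only SLC25A22 (1 of many), whose current symbol is slc25a22a, was abundant, with 846 and 1366 normalised counts in Tg(ins:il1b) against 1075 and 846 in WT and a log2 fold change of 0.17 (limma adjusted p = 0.872). The other 4 reached at most 23.2 normalised counts in any library. Reads of near-identical members may have been shared between rows, and how the counting treated such reads is not given in the sources used here.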

How the data were processed

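mRNA of FACS-sorted β-cells was measured in 2 Tg(ins:il1b) and 2 WT libraries of 3-month-old zebrafish. GSNAP and GRCz10 are named in the submitters' processing notes, and Ensembl annotation version 87 in the methods. Counter, strand setting and normalisation tool: not given in the sources used here. Values deposited by the authors are a per-gene signal, their normalised counts, formed by dividing the read counts of a library by its factor. Whole reads were recovered by this re-analysis, and 100% of values lay within 0.1 of a whole read.

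The 18504 genes that reached 10 normalised counts in 2 or more libraries entered limma 3.58.1 (R 4.3.3), run on log2(value + 1) with the variance trend, which left 2 residual degrees of freedom. Adjustment for multiple tests used Benjamini-Hochberg at 0.05. The added 1 draws the change of low genes toward 0. limma estimates of low genes were still not always the smaller. They were -2.19 for slc25a18 (DESeq2 -1.97) and 1.50 for slc25a25a (DESeq2 1.70). edgeR 4.0.16 and DESeq2 1.42.0 were run on the recovered reads. Intervals are at 95%. A count of 0 was taken to allow up to 3 reads per library. Scripts were tested on simulated data. Plotting used Python 3.11.15 and matplotlib 3.10.9.

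Full statistics are given for members called by any of the 3 tools, for those with an unadjusted limma p under 0.05 and for the most abundant tested member of each substrate group. Other genes are given by values or counts, and 1 member is counted but not reported here by name. Of the other mitochondrial genes, those called and up to 2 abundant genes a list were named by rule, and further ones were chosen after their values were seen. Members and gene lists were chosen with earlier results of these data known. Replicates of a genotype differed beyond sampling noise. Alternatives were other scalings, pseudocounts, filters and tools, a replicate block and leaving out each library.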

Additional observations from a re-analysis of the deposited data

How the results depend on the processing

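Members called by limma were 0 higher and 0 lower under TMM scaling, scaling by total reads and pseudocounts of 0.5 and 10. The same held with no filter, a mean of at least 50, no variance trend and the replicate block. The share of all genes called under these settings is not given here, so 0 calls cannot set members apart from the background. limma without each library in turn left 1 library in a genotype, and only its log2 fold changes are given below. DESeq2 called 0 higher and 1 lower. DESeq2 without each library in turn, an alternative chosen after seeing the data, made some calls among members. Each such fit left 1 library in a genotype, and its share of all genes called is not given here. The calls are therefore not read against the background. Those calls were slc25a15a, slc25a33 and slc25a36b without Tg(ins:il1b) replicate 1, slc25a18 and slc25a22 without Tg(ins:il1b) replicate 2, and none without either WT library. Of the other mitochondrial genes, DESeq2 called me1 lower without Tg(ins:il1b) replicate 1, and me1 and ucp1 lower without WT replicate 2. me1 had 526 and 175 normalised counts in Tg(ins:il1b) against 1377 and 688 in WT. ucp1 had 43.5 and 1.1 in Tg(ins:il1b) against 404 and 4.8 in WT. Its genotypes overlapped, and WT replicate 1 alone was high.

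The correlation of same-numbered deviations between the genotypes was 0.03 over 18504 genes. This value cannot show whether same-numbered libraries were handled together. With the replicate number as a block, 0 members and 1 other mitochondrial gene, me1, were called lower, and slc25a36b had an adjusted p of 0.111.

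Scaling by total reads moved the median log2 fold change of all genes to 0.15 and that of the members to 0.07. It reversed slc25a25b (0.079), slc25a3b (0.030) and mdh2 (0.045). Without each library in turn, limma's log2 fold change ran from -0.0039 to 0.046 for slc25a5, from -0.021 to 0.28 for slc25a11, from -0.44 to 0.28 for slc25a25b, from -0.30 to 0.035 for slc25a3b and from -0.12 to 0.27 for vdac3. DESeq2 reversed slc25a11 (-0.017) and vdac3 (-0.12) without Tg(ins:il1b) replicate 1, slc25a25b without Tg(ins:il1b) replicate 2 (0.10) or WT replicate 1 (0.30), and slc25a3b (0.027) and vdac3 (-0.017) without WT replicate 2. All of these lay near 0 in the main result, and the cause was not tested. With 2 libraries a genotype, changes of different size within an interval given could not be told apart.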
